A study of Caenorhabditis elegans with 2 samples.

Results

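From the 19973 protein-coding genes of Caenorhabditis elegans, 9 were followed by name. They encode the ATPase CDC-48 (cdc-48.1 and cdc-48.2), its cofactor UFD-1 (ufd-1) and 6 subunits of the proteasome (rpn-1, rpn-2, rpn-3, rpn-9, rpt-1 and pas-5). They were chosen by what they encode and by the signal, score and rank of peaks at some of their promoters in these same lists, so those values are given here as a description, with no test. For each gene, the summits of chromatin immunoprecipitation peaks were taken from 500 bp upstream to 200 bp downstream of the annotated 5' end, a stretch called the promoter window below.

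The peaks came from ChIP-seq of the protein C17E4.6, which belongs to the VPS72 (YL1) family. In yeast and human cells, members of that family are subunits of complexes that place a histone variant into chromatin. The worms were of strain RW12293 (st12293), in which CRISPR placed a TY1, EGFP and 3xFLAG tag on C17E4.6 at its own locus on chromosome I, and the immunoprecipitation used an antibody against GFP although the antibody field of the labels names C17E4.6. Whole young adults, 62 h after growth from L1 larvae that had been starved after bleaching, gave 2 biological replicates of 1 group. There was no second genotype, stage or treatment, 1 tagged strain was used, and no control immunoprecipitation was analysed here. Since whole animals were used, a strong peak in few cells and a weak one in many cannot be told apart.

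CDC-48, called VCP in mammals, is a ring-shaped ATPase that pulls ubiquitin-tagged proteins out of membranes, complexes and chromatin. It works with the UFD-1 and NPL-4 pair of cofactors, which bind the ubiquitin chain, and hands many of its clients to the proteasome. The proteasome has a barrel-shaped core particle of alpha subunits (pas genes) and beta subunits (pbs genes), in which proteins are cut, and a regulatory particle of ATPases (rpt genes) and other subunits (rpn genes), which binds, unfolds and feeds in the substrate. In worms the transcription factor SKN-1 raises expression of proteasome genes when the proteasome is impaired.

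There were 8 lists of peaks. For each replicate a long ranked list and a short thresholded one were given. The pool of the replicates had a thresholded list, a second thresholded list called conservative, which is not a subset of the first, and the ranked lists from which these were drawn. The combined thresholded list held 1017 peaks and the combined ranked list 65464. The signal is the authors' own value for each peak on a scale that is not stated, and it describes and ranks peaks within a list. The score follows the irreproducible discovery rate (IDR), with a cap of 1000 for the most reproducible peaks, and thresholded lists start at 830, an IDR of 0.01. A summit in a ranked list alone is a weak statement, since 42.9% of all coding genes had a combined ranked summit in the window.

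In the combined thresholded list, 3 of the 9 genes had a summit in the promoter window, against 2.79% of all coding genes. These were cdc-48.1, rpn-3 and rpn-9, and because some of the genes were named for these very peaks the count is not a result about the group. The conservative list held 2 of the 9 (2.66% of coding genes), cdc-48.1 and rpn-3. The thresholded list of replicate 1 held the same 2 (1.72% of coding genes), and that of replicate 2 held cdc-48.1 alone (1.34% of coding genes). In the combined ranked list, 8 of the 9 genes had a summit in the window, and rpt-1 had none. The ranked list of replicate 1 held 7 (33.2% of coding genes) and that of replicate 2 also held 7 (34.1% of coding genes), with 6 in both (18.6% of coding genes). The member just inside the threshold was rpn-9, with a combined score of 849, and the one just outside it was pas-5, with 453.

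**Figure D1:**
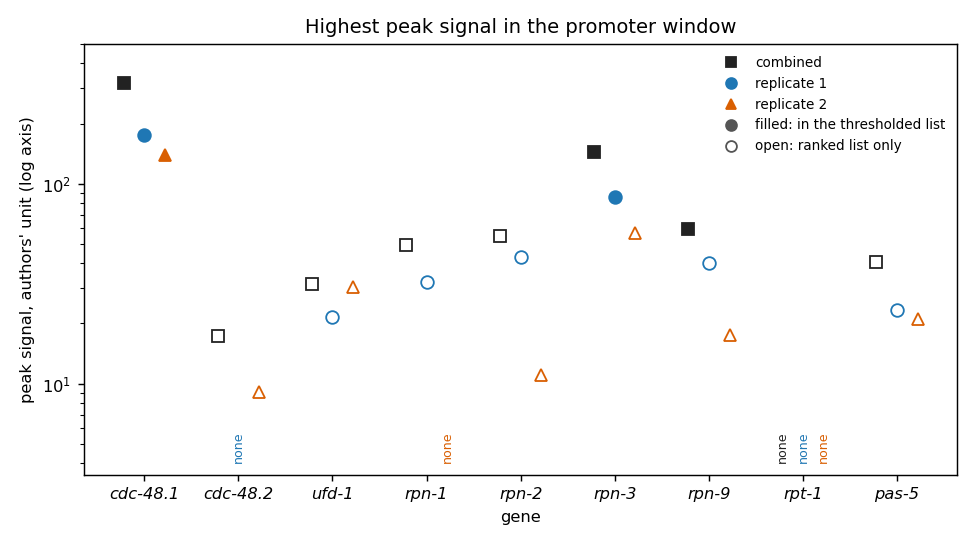
Highest peak signal in the promoter window of each of the 9 genes (log axis, authors' unit) in the combined list, replicate 1 and replicate 2. Filled symbols mark peaks in the thresholded list of that kind and open symbols peaks of the ranked list alone. The gene cdc-48.1 lies highest in all 3, at 320, 176 and 139, followed by rpn-3 at 144, 86.3 and 56.9, and rpt-1 had no peak in any.

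The peak at cdc-48.1 was among the strongest of the whole experiment. The gene (WBGene00007352) lies on the minus strand of chromosome II, from 10560036 to 10563407 in the assembly WBcel235 (ce11), and encodes one of the closely related CDC-48 ATPases of the worm. The combined signal was 320, rank 7 of 1017, and in the order of coding genes by window signal it stood at position 5. Replicate 1 gave a signal of 176, rank 8 of 570 in its thresholded list, and replicate 2 a signal of 139, rank 6 of 414. All had the maximal score of 1000. The 3 summits were 168, 172 and 165 bp upstream of the 5' end in the combined list, replicate 1 and replicate 2, so the replicates placed it 7 bp apart. The combined peak ran from 10563500 to 10563671 and was 172 bp wide, whereas 95.2% of the thresholded peaks had the full width of 284 bp.

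No other coding gene had the cdc-48.1 summit in its window. The next gene upstream, C06A1.6, lies on the same strand and ends 704 bp from the 5' end of cdc-48.1. The nearest divergent gene, C06A1.7, starts 1484 bp away. Among the 3 marked members this was the one summit that could be read as belonging to 1 annotated coding gene.

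The summit window of cdc-48.1 is shown because it had the highest signal of the 9 genes. The sequence is the gene's own strand, 5' to 3', over 121 bp centred on the combined summit (chrII:10563515-10563635, minus strand), taken from the RefSeq copy of the assembly WBcel235. Capitals mark the 8 bp that hold all 3 summits.
cdc-48.1: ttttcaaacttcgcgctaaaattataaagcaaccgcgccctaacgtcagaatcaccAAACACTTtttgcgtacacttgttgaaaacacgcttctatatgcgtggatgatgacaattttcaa

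Across 540 coding genes outside the pathway that were marked in the combined thresholded list and had a summit in both replicates, the levels most like those of cdc-48.1 were at rpl-20, with combined, replicate 1 and replicate 2 signals of 313, 168 and 147. The measure of likeness was the distance between log2 signals over the 3 lists, which was 0.11 for rpl-20, a gene of the large ribosomal subunit. The same peak lies in the window of its neighbour Y17G9B.5, which therefore had the same values. The third gene was mog-4, which encodes a splicing helicase needed in the germ line, with signals of 343, 201 and 140 and a distance of 0.21.

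The paralogue cdc-48.2 (WBGene00008053, chromosome II, 8138496 to 8141230, plus strand) was not marked. Its highest combined ranked summit had a signal of 17.3 and a score of 152, rank 44526 of 65464, and lay 265 bp upstream. Replicate 1 had no ranked summit in the window. Replicate 2 had signals of 9.11 and 8.13, at 443 and 100 bp upstream, neither within 100 bp of that combined summit. A second combined ranked summit, 42 bp upstream, had a signal of 9.0 and a score of 152. The weaker of the replicate 2 summits lay within 100 bp of this second one. The combined list did hold a thresholded summit within the gene, in an exon 2617 bp downstream of the 5' end, where the signal was 33.8 and the score 992, and the conservative list did not hold it. The coding sequences of the paralogues, 2427 and 2430 bases long in 5 coding exons each, were 76.6% identical over 2409 aligned bases. The 500 bp upstream of each gene shared little, and the best local alignment had 26 identical bases of 32. A search of the genome with the 151 bp around each summit found no second copy of either, at an expected number of chance hits of 0.001 or less.

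The cofactor gene ufd-1 (WBGene00006733, chromosome IV, 12329408 to 12330890, minus strand) had low and scattered summits. The combined ranked signal was 31.5 with a score of 151, rank 13202, at 290 bp upstream. Replicate 1 gave 21.5 with a score of 108 at 121 bp upstream, and replicate 2 gave 30.6 with a score of 383 at 306 bp upstream. Among the 6 members with a summit in both replicates it was the one with the higher signal in replicate 2, but at a different place in the window. The combined summit lay in an exon of F19B6.1, a gene on the same strand whose end is 85 bp from ufd-1. The nearest thresholded summit of the combined list was 41168 bp away, in the window of wdr-46.

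Among proteasome genes, rpn-3 had the strongest peak. Rpn3 is a subunit of the lid of the regulatory particle. The gene (WBGene00004460) lies on chromosome III from 8447353 to 8449346 on the plus strand. The combined signal was 144, rank 106 of 1017, with a score of 1000 and a summit 213 bp upstream. In replicate 1 the signal was 86.3 with a score of 1000. In replicate 2 it was 56.9 with a score of 599, under the threshold, although its signal ranked 208 of 45592. The summits of the replicates were 3 bp apart.

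The rpn-3 peak lies between 2 genes that face away from each other. The other is hsp-110 (WBGene00016250), which encodes a chaperone that helps Hsp70 release its nucleotide. The 5' ends of the pair are 444 bp apart and the summit is 231 bp upstream of hsp-110, close to the middle. A noncoding gene, C30C11.14, starts 45 bp from the summit. The peak cannot be assigned to 1 of these genes, and the same holds for 26.9% of the 454 thresholded peaks in a coding promoter window, whose summits lie in the windows of 2 or more coding genes.

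The second marked proteasome gene was rpn-9, which also encodes a lid subunit (WBGene00004465, chromosome II, 11237447 to 11238919, minus strand). Its peak was near the bottom of the combined list, with a signal of 59.4, rank 901 of 1017 and a score of 849. It was not in the conservative list, where the ranked list behind it gave a score of 375. Replicate 1 had a signal of 40.3 with a score of 652, and replicate 2 had 17.5 with a score of 42. Neither passed the threshold of its own replicate, so the call rests on the combined list alone. The combined summit was 280 bp upstream, and 398 bp upstream of the head-to-head gene T06D8.9 (WBGene00011529). The search of the genome with the 151 bp around this summit found 22 other alignments, the longest over 75 bp, where those around the other 7 summits found none. The sources used here do not say how reads from repeated sequence were placed, and the part of repeats in this peak was not tested.

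The windows of rpn-3 and rpn-9 are shown in the same way, from the same source, since both share their peak with a second gene. The stretches are chrIII:8447080-8447200 on the plus strand and chrII:11239139-11239259 on the minus strand. Capitals again run from the lowest to the highest summit of the 3 lists, over 32 bp in rpn-3 and 36 bp in rpn-9.
rpn-3: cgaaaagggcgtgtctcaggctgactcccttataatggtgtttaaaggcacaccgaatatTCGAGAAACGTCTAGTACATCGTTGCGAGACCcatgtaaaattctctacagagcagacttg
rpn-9: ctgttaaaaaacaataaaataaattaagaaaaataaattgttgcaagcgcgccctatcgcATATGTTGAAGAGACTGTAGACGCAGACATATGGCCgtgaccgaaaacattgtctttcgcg

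Rpn1 and Rpn2 are the large scaffold subunits at the base of the regulatory particle. At rpn-2 (WBGene00004459, chromosome III, 6199184 to 6202594, plus strand) the combined ranked signal was 54.6 but the score was 58, far below the threshold. Replicate 1 had a signal of 43.1 with a score of 799, just under 830, at 371 bp upstream. Replicate 2 had 11.1 with a score of 246, at 263 bp upstream, over 100 bp from it. Signal alone did not set the call, since 82 thresholded peaks had a lower signal than rpn-2, and of the 1547 ranked peaks with a higher one, 551 had a score below 830. The summit was also 398 bp upstream of C23G10.7 (WBGene00016014), head to head with rpn-2.

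At rpn-1 (WBGene00004458, chromosome IV, 6906420 to 6909913, minus strand) the combined ranked signal was 49.4 with a score of 183, at 361 bp upstream. Replicate 1 had 32.2 with a score of 364 at the same base, and replicate 2 had no ranked summit in the window. The summit was in the noncoding gene T22D1.19 and 409 bp upstream of the head-to-head gene ribo-1 (WBGene00020683), which encodes a subunit of the enzyme that attaches sugar chains in the endoplasmic reticulum. So at both scaffold genes replicate 1 alone had a ranked summit within 100 bp of the combined one. What replicate 2 added to the combined signal was not tested, since no reads were examined.

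The ATPase gene rpt-1 (WBGene00004501, chromosome V, 11980534 to 11982397, minus strand) had no summit in its promoter window in any of the 8 lists. The nearest thresholded summit, with a signal of 211 and rank 32 of 1017, was 2330 bp downstream of the 5' end and 467 bp beyond the end of the gene. It lay in the noncoding gene C52E4.14, 51 bp upstream of the snRNA gene T11F9.15 and 344 bp upstream of snr-4, which encodes an Sm protein of the splicing machinery. A strong peak near rpt-1 was therefore at the window of another gene.

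The last member, pas-5 (WBGene00003926, chromosome I, plus strand), encodes an alpha subunit of the core particle. The combined ranked signal was 40.4 with a score of 453, at 304 bp upstream. Replicate 1 had 23.4 and replicate 2 had 21.1, with scores of 43 and 36 and summits 34 bp apart. This was the most even pair of replicate signals among the members, yet neither came near the threshold. A thresholded summit of the combined list lay 930 bp upstream, outside the window, in the snoRNA gene F25H2.15, with a score of 1000 and a signal of 21.8. The nearest thresholded summits of replicates 1 and 2 were 1050 and 1116 bp upstream, with higher signals of 66.0 and 56.2.

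The thresholded peaks beside other unmarked members also fell mostly at other genes. Those nearest to rpn-1 and rpn-2 were 130 bp and 43 bp beyond the ends of these genes, with signals of 76.7 and 87.4. The first lay 58 bp inside the 5' end of T22D1.8 and the second in an exon of sna-3. Of the 6 unmarked members, cdc-48.2 alone had its nearest thresholded summit within the gene itself.

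**Figure D2:**
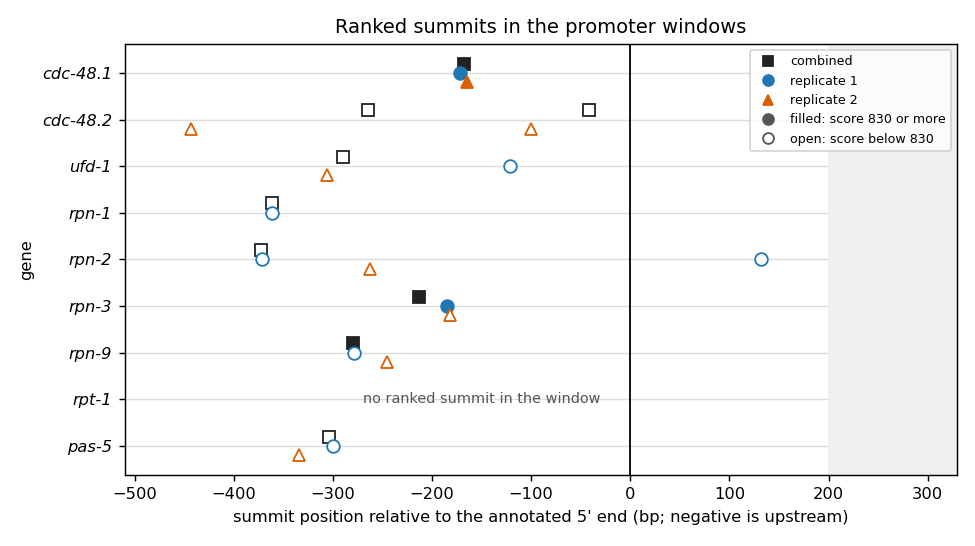
Position of every ranked summit in the promoter windows of the 9 genes, in bp from the annotated 5' end (vertical line), with the shaded part outside the window. Filled symbols have a score of 830 or more. The 3 summits of cdc-48.1 lie between 165 and 172 bp upstream, those of rpn-3 between 182 and 213, and those of ufd-1 between 121 and 306.

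Replicate 2 gave lower signals than replicate 1 at most peaks, so the members were set against that. Over 913 thresholded peaks with a summit within 100 bp in both replicates, the median log2 ratio of replicate 2 to replicate 1 was -0.33 (SD 0.56), and 682 of them (74.7%) were lower in replicate 2. At 4 members a ratio could be formed, and it was -0.34 at cdc-48.1, -0.60 at rpn-3, -1.21 at rpn-9 and -0.14 at pas-5. All 4 were lower in replicate 2, with a median of -0.47. These signals were among the values that chose the members, so nothing is read from the median. The ratio at rpn-9 was the lowest of the 4. The number of reads behind each replicate is not known here, and 2 samples of 1 group allow no test.

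The 9 genes are a small part of their pathway, and 60 genes in 8 role lists were therefore read in full. Of the 34 proteasome subunit genes, 2 were marked in the combined thresholded list, rpn-3 and rpn-9. That is 5.88% (Wilson 95% interval 1.63 to 19.1%), and the interval contains the 2.79% of all coding genes. Both belong to the 14 non-ATPase subunits of the regulatory particle. None of the 14 core subunits was marked, and a count of 0 allows a share of up to 21.4%. None of the 6 ATPase subunits was marked either, which allows up to 50%. In the conservative list 1 of the 34 was marked (2.66% of coding genes), and in the list of replicate 1 again 1 (1.72% of coding genes). In that of replicate 2 none was (1.34% of coding genes), which allows up to 8.82%. Intervals and limits cover counting error only, and rpn-3 and rpn-9 were named from these peaks.

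With no threshold on the score, a summit in the window was common at proteasome genes. In the combined ranked list, 28 of the 34 (82.4%) had one, the marked rpn-3 and rpn-9 among them, beside 42.9% of all coding genes. The share was 12 of 14 in the core, 5 of 6 in the ATPases and 11 of 14 in the other subunits. The 6 without one were pas-7, pbs-6, rpt-1, rpn-6.1, rpn-6.2 and rpn-12. Over genes with a summit, the median combined ranked signal was 33.9 at proteasome subunits and 26.1 at all coding genes. These lists were chosen with results known, so the shares are a description.

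Within the core, the highest alpha signals were at pas-4, with 41.3, and pas-5, followed by pas-1 and pas-2 at 35.1 each. The pas-4 summit was shared with rpb-3, which encodes a subunit of RNA polymerase. The highest beta signals were at pbs-5, which encodes the beta subunit with chymotrypsin-like activity, and pbs-4. At pbs-5 the combined signal was 55.3 with a score of 417, 78 bp downstream of the 5' end, and replicate 1 gave 39.7 with a score of 617. At pbs-4 the combined signal was 33.7. All of these lay below the threshold. They also lay above the median of 26.1 over coding genes with a summit, but they were named for their high signals. Over all core subunits with a combined ranked summit the median was 33.3 and the lowest signal 22.7.

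Within the regulatory particle, the highest ATPase signals were at rpt-3, with 44.7, and rpt-2, with 32.3. Besides the 4 rpn genes followed here, the non-ATPase genes with the highest signals were rpn-11, which encodes the subunit that removes ubiquitin from substrates, and rpn-7. The combined ranked signal was 51.8 at rpn-11 with a score of 84, and 44.3 at rpn-7 with a score of 170. So at rpn-11, as at rpn-2, a signal near that of rpn-9 went with a low score in the combined ranked list. The conservative ranked list gave other scores, 389 at rpn-11, 534 at rpn-7, 58 at rpn-2 and 375 at rpn-9. The contrast of rpn-11 with rpn-9 is therefore not seen there.

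Of the 3 genes for CDC-48 ATPases, cdc-48.1 alone was marked, beside 2.79% of all coding genes. The more distant cdc-48.3 had a combined ranked signal of 17.9, close to the 17.3 of cdc-48.2, and a score of 28. Of 12 cofactor genes, ufd-3 was marked, which encodes a ubiquitin-binding partner of CDC-48. Its summit was 80 bp upstream, with a combined signal of 71.9, rank 644 of 1017 and a score of 1000. Replicates 1 and 2 gave 40.8 and 30.2 with scores of 702 and 314, so neither replicate passed alone. The conservative list added ufd-2, a ubiquitin chain elongation factor, at a signal of 57.2 and a score of 842, whose score in the combined ranked list was 646. The UBX-domain gene ubxn-2 had a combined ranked signal of 54.1 and a score of 588. Both NPL-4 genes, npl-4.1 and npl-4.2, had no ranked summit in the window, so the partners UFD-1 and NPL-4 were both without a call.

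Upstream of the proteasome, 2 of the 3 genes for ubiquitin and its activating enzyme were marked, beside 2.79% of all coding genes. This list of 3 was chosen with results known, so the count is a description. The gene uba-1 encodes the E1 enzyme, which starts every ubiquitin transfer. It had a combined signal of 107, rank 245 of 1017, and signals of 64.1 and 44.9 with scores of 1000 and 918 in the replicates. Of the 60 listed genes, uba-1 and cdc-48.1 were marked in the thresholded lists of both replicates, and no other was. Those lists marked 1.72% (replicate 1) and 1.34% (replicate 2) of all coding genes, and the share marked in both was not taken. The gene ubq-2, which encodes ubiquitin fused to a ribosomal protein, had a combined signal of 71.3 at 482 bp upstream, with 33.9 and 46.1 in replicates 1 and 2. Its summit was 157 bp upstream of the head-to-head gene frg-1. The polyubiquitin gene ubq-1 had a combined ranked signal of 33.8 and was not marked.

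None of the 8 regulator genes, which include skn-1, png-1 and ddi-1, was marked, and a count of 0 allows up to 37.5%. The highest signals among them were at ubh-4, a deubiquitinase of the proteasome, with 51.5 and a score of 468, and at aip-1, with 37.5. At ubh-4 the conservative ranked list gave a score of 68, and replicate 2 had no ranked summit in the window. The summits of ubh-4 and aip-1 also lay in the windows of the head-to-head genes algn-6 and ddx-17. Over all 60 listed genes, 6 were marked (10%, Wilson 95% interval 4.66 to 20.1%), beside 2.79% of all coding genes. The 6 include the members cdc-48.1, rpn-3 and rpn-9, and members were chosen with these peaks known. The lists were also chosen with results known, so the interval covers counting error only and is not a test. Without the 9 genes followed here, 3 of 51 were marked (5.88%). No listed gene is on the X chromosome, and over autosomal coding genes alone 3.11% were marked.

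**Figure D3:**
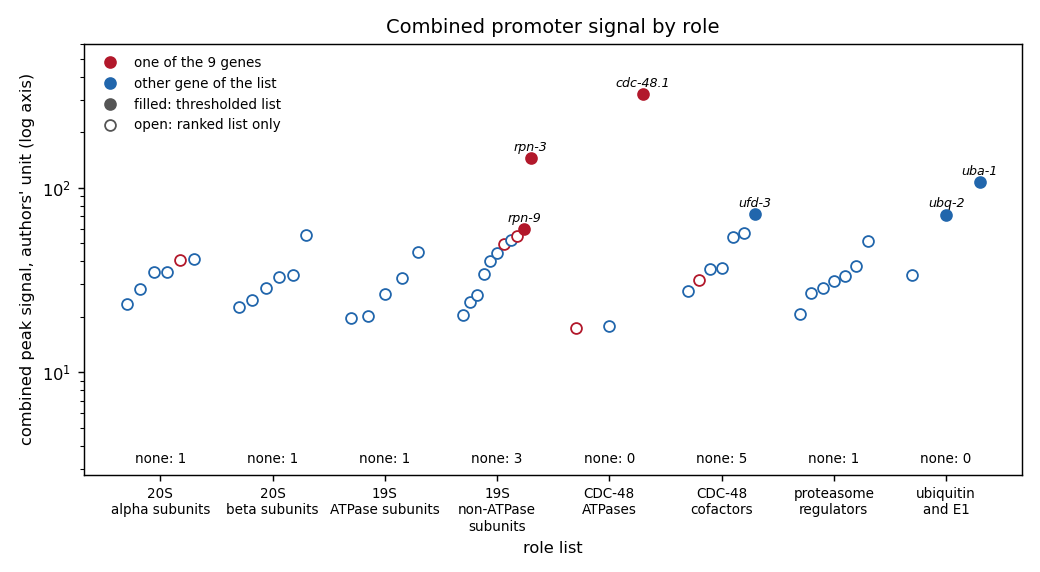
Combined ranked peak signal (log axis, authors' unit) of the genes in each of 8 role lists, with 1 point per gene and the number of genes without a ranked summit below. Filled points are in the thresholded list and red points are the 9 genes. The 6 filled points are cdc-48.1, rpn-3, rpn-9, ufd-3, uba-1 and ubq-2, and no core or ATPase subunit is filled.

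**Figure D4:**
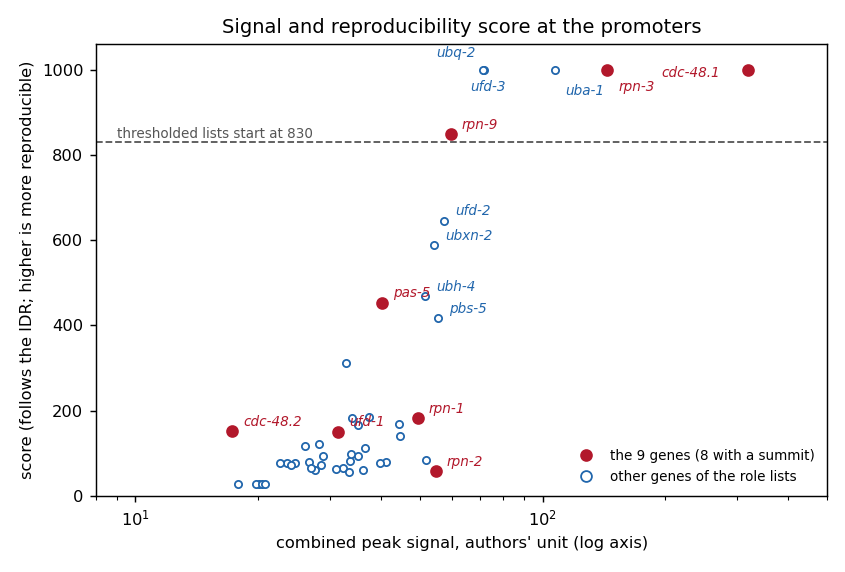
Combined ranked signal (log axis, authors' unit) against score for the listed genes with a summit, with the threshold score of 830 dashed. The members rpn-2 and rpn-1 have signals of 54.6 and 49.4, near the 59.4 of rpn-9, and scores of 58 and 183 beside its 849.

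Sequence around the summits was described for the 8 members that had one, over 151 bp centred on the combined ranked summit, with 9 motifs searched on both strands. The core of SKN-1 sites, ATCAT or GTCAT, was present at 5 of the 8 (cdc-48.1, cdc-48.2, ufd-1, rpn-1 and rpn-2) and in 34.6% of the 1017 thresholded windows. Such a short word is frequent, and 72.1% of coding promoters held it in the 300 bp from 250 bp upstream of the 5' end. The EOR-1 word CTGCGTCT was at 2 of the 8 and in 7.47% of thresholded windows. At rpn-9 it lay from 11239174 to 11239181 on chromosome II, 21 bp from the combined summit and inside the capitals above, where the gene's strand shows its reverse complement. The E2F words TTGGCGC or TTCCCGC were at 2 of the 8 and in 10.8% of thresholded windows, in rpn-2 at 11 bp from the summit. A heat shock element was at rpn-3 alone among the members and in 2.75% of thresholded windows, and it was centred on the combined summit between rpn-3 and hsp-110. That summit was 213 bp upstream of rpn-3. The summits of replicates 1 and 2, at 185 and 182 bp upstream, lay outside the element. Among the 8 windows the TATA box TATAAA was at cdc-48.1 alone, and it was in 8.85% of thresholded windows. It lay 36 bp further upstream than the summit, 201 bp from the annotated 5' end. In the promoter stretch of 300 bp it was at 4 of the 9 genes and in 37.9% of coding promoters. The GAGA word GAGAGA was at 2 of the 8 and in 19.4% of thresholded windows. The CREB word TGACGTCA, the E-box CACGTG and the GATA word GATAAG were at none of the 8, and in 0.688%, 4.23% and 3.93% of thresholded windows. The windows of unmarked members were centred on ranked summits, and shares of these motifs over ranked windows were not taken. Each match is a description of letters in these windows, and no factor was measured.

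The rpn-2 window is shown because its E2F word lies beside a summit that did not pass the threshold (chrIII:6198752-6198872, plus strand, same source). It has no capitals since the replicates' summits did not match.
rpn-2: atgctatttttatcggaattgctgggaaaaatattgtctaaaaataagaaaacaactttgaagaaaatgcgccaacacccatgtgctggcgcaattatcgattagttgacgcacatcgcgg

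The G and C content of the member windows was set beside that of thresholded windows. The median over the 454 thresholded windows at coding promoters was 45.7% (quartiles 39.7 and 50.3%). The member windows ran from 35.1% at rpn-2 and rpn-9 through 38.4% at cdc-48.1 to 45.0% at rpn-1, so all 8 were below that median. Only rpn-2, rpn-9 and cdc-48.1 were below the lower quartile. The windows of unmarked members were centred on ranked summits, and no median was taken over ranked windows. GC content can change how well a fragment is amplified, and its part in these signals was not tested.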

How the data were processed

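Chromatin immunoprecipitation of tagged C17E4.6 was sequenced in 2 biological replicates of 1 group after sonication, per the labels. What was deposited were 8 peak lists on assembly ce11 (the sequence of WBcel235); neither aligner nor caller is named in the sources used here. The authors deposited for each peak a score, a signal, a −log10 q and the offset of its summit. In the ranked lists the deposited score lay within 1.0 unit of a multiple of the deposited −log10 IDR, capped at 1000. The signal, deposited by the authors on a scale not stated, ranked peaks within a list, and the −log10 q broke ties. The authors pooled the replicates for the combined lists, of which 16 unlabelled columns were left out. Read counts are absent from the lists, so depth is unknown.

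Coordinates start at 1. Gene models came from Ensembl release 115, and sequence was read from the RefSeq genome. Annotated 5' ends of worm genes are often trans-splice sites. Marked genes had a summit in the promoter window, and the highest signal was used where there were several. Intervals are Wilson intervals (95%) and the limit for a count of 0 is 3 counts of the total. Replicate summits were matched within 100 bp of a combined summit. The window rule was tested on simulated data. Genes named were the 9 members, each marked listed gene, up to 2 more per list with the highest combined ranked signal, genes sharing a member's summit, and the 3 genes nearest to cdc-48.1 in signal. Genes at the nearest thresholded summits, neighbours, listed genes with no ranked summit, pas-1, pas-2 and genes naming a list were added after their values were seen. No test was run, since there is 1 group and no control. The members and lists were chosen with earlier results of these data known. Python 3.11.15, pandas 2.3.3, biopython 1.88 and blastn 2.17.0 were used.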

Additional observations from a re-analysis of the deposited data

How the results depend on the processing

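Of 59 values recomputed under an alternative, 41 stayed within the limits set (for counts, 1.5 times) and 18 moved. The 41 include the counts for the CREB, E-box and GATA words, which were 0 under every setting. Only the median log2 ratio between replicates can reverse its sign, and it did not. Of the 9 genes, 3 were marked, 2 in a window of 250 bp upstream to 100 bp downstream (1.68% of coding genes), and 4 in one of 1000 bp upstream to 500 bp downstream (3.73%), which added pas-5. With a single replicate's list the count was 1 (replicate 2 alone, cdc-48.1) to 2 (replicate 1 alone), and 8 in the combined ranked list (42.9% of coding genes, also for the counts from it below), an alternative added after the data were seen. Of 34 proteasome subunits, 2 were marked, 1 in the narrow window, 4 in the wide one, 1 in the conservative list, 1 among the 508 peaks of highest signal, 0 to 1 in a single replicate's list, and 28 in the combined ranked list. Of 15 CDC-48 ATPases and cofactors, 2 were marked, 1 among the 508 peaks, 1 in either replicate's own list, and 10 in the combined ranked list. The cause was not tested beyond what each alternative does by construction. Restoring the 70 peaks with a score of 830 or more that the thresholded list lacks, 1 gene per peak, the 5' ends of other transcripts and overlap by 1 bp left all 3 counts as they were. The median log2 ratio between replicates at the members was -0.47 for matches within 50, 100 or 200 bp and -1.14 with the rank as a share of the list. Within 50 bp of the summit, 3 members held the SKN-1 core in place of 5, and within 100 bp 7, while the share of thresholded windows with it was 22.8% and 44.1%. As a share of its list, cdc-48.1 ranked at 0.688% and between 1.4 and 1.45% in single replicates. No paired analysis was possible because there is 1 group. The unknown depth limits all comparisons between the replicates, and 2 replicates give no test.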

Other observations

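The GTCATCAT word was noticed after the windows had been seen, so it has no test. In it the SKN-1 cores GTCAT and ATCAT overlap by 2 letters. It was in 3 of the 8 member windows of 151 bp, at cdc-48.1, cdc-48.2 and rpn-1, but in 8 of 1017 thresholded windows (0.787%) and 501 of 65464 combined ranked windows (0.765%). In the promoter window of 701 bp it was at 4 of the 9 genes, the other being pas-5, at 7 of 34 proteasome subunit genes (20.6%) and at 3.86% of all coding genes. The word was present both at cdc-48.1, with a combined signal of 320, and at cdc-48.2, with one of 17.3. A relation between word and signal was not tested. The copies are shown with the word in capitals, from the plus strand of WBcel235 in the RefSeq copy, at chrII:10563512-10563543, chrII:8138201-8138232 and chrIV:6910240-6910271. Their near edges are 117, 276 and 339 bp upstream of the 5' ends.
cdc-48.1: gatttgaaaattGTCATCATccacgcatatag
cdc-48.2: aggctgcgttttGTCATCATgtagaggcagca
rpn-1: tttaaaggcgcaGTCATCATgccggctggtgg

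The 3 marked members were also searched for the longest word shared by each pair of windows, on either strand, a choice made after the windows were seen. Each of the 3 pairs shared a word of 9 letters. The words shared by cdc-48.1 with rpn-3 and by rpn-3 with rpn-9 were in 2.07% and 1.04% of coding promoter windows of 701 bp. The word shared by cdc-48.1 and rpn-9, CGCGCCCTA, was in 23 of 19973 such windows (0.115%) and in 19 of 65464 combined ranked windows. Among the 1017 thresholded windows it was in those of cdc-48.1 and rpn-9, centred 23 and 9 bp from the summits, and in no other. The word was taken from these 2 windows, so its presence in both was set by the search. Other pairs of windows were not searched, so how often a pair shares so rare a word is not known. The rpn-9 window is the one with alignments elsewhere in the genome, and whether the word lies in the repeated stretch was not tested.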
